A study of Mus musculus with 2 samples.

Results

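Liver sinusoidal endothelial nuclei were described in single-nucleus RNA data from residual tumour of mouse hepatocellular carcinoma (HCC), the main cancer of liver cells. The nuclei were chosen by their own UMI counts of 12 gate genes, so those counts are no finding. A barcode was counted as one when it held at least 2000 unique molecular identifiers (UMIs, each a counted RNA molecule) and at most 5% mitochondrial UMIs. Its UMIs of Flt1, Kdr, Ptprb, Pecam1 and Egfl7, which mark endothelium, had to sum to at least 4. Those of Stab2, Lyve1 and Clec4g, which mark sinusoids, had to sum to at least 2. The hepatocyte genes Cyp7b1, Abcb11 and Arg1 had to stay in sum under 10 per 10000 UMIs, and Pkhd1 at or below 4 UMIs. This gate kept 210 of the 17169 filtered barcodes. They were 2.18% (95% exact interval 1.90 to 2.49) of the 9632 barcodes that passed the depth and mitochondrial limits.

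The labels name 2 samples of 1 group, MRD-HCC 1 and MRD-HCC 2, both liver with HCC, from which a residual area was microdissected. Genotype, strain, age and any treatment of the mice are not given in the sources used here. The barcodes carry no sample name, so all counts were treated as 1 pooled sample with no replicates. Every interval below is a 95% interval for counting error within these nuclei, and none covers differences between animals.

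Sinusoidal endothelial cells line the liver's capillaries, which carry open pores and have little basement membrane beneath them. They clear proteins, immune complexes and lipoproteins from blood through scavenger receptors, and they make clotting factor VIII. They also send signals to hepatocytes, such as bone morphogenetic proteins that set hepcidin, the hormone of iron balance, and Wnt ligands that set the zones of the lobule. In tumours and scarred liver, sinusoids are known to take on features of ordinary capillaries.

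The 210 nuclei held 2008 to 42856 UMIs each, with a median of 4974, and 1354756 in all. Their endothelial gate sum ran from 4 to 66 UMIs with a median of 19.5, and their sinusoidal gate sum from 2 to 63 with a median of 8. At the edge of the gate, 41 nuclei held 2 sinusoidal UMIs and 97 barcodes that met every other limit held 1. The main comparison group was 591 endothelial barcodes that met the same limits and held 0 UMIs of Stab2, Lyve1 and Clec4g. These had a median of 4499 UMIs and 3259365 in all. Values are counts per 1e6 UMIs of a group's sum (CPM), and folds are ratios of CPM. Since the gate chose the nuclei, no value of its own genes is given as a result, and the other genes are given as a description without a test.

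The label was checked on 9 sinusoidal markers outside the gate. Stab1, Mrc1, Fcgr2b, Gpr182, Oit3, Dnase1l3, F8, Gata4 and Maf were all higher in the sinusoidal than in the other endothelial nuclei, by 2.08-fold (1.81 to 2.38) for Stab1 to 19.5-fold (13.1 to 30.3) for Fcgr2b. General endothelial genes were near their level in the other endothelial nuclei. Cdh5, the adhesion protein of endothelial junctions, was at 240 CPM against 256, and Erg, an endothelial transcription factor, at 227 against 230.

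Other cells' RNA was present in these barcodes and bears on each gene shared with another cell type. The 12 Kupffer cell and macrophage markers summed to 779 CPM in the sinusoidal and 240 CPM in the other endothelial nuclei. The sum was 3682 CPM in 111 reference macrophage nuclei, which were chosen by 7 of these markers, and 503 CPM in free RNA, the RNA of 49929 droplets too shallow to be called nuclei. None of the 12 was at 0 in the sinusoidal nuclei. At least 2 UMIs of these markers were found in 71 of 210 sinusoidal (33.8%) and 102 of 591 other endothelial barcodes (17.3%). With each barcode thinned to 2000 UMIs the shares were 20% and 8.12%. Scrublet, a doublet caller, marked 4 of 210 and 13 of 591. Free RNA made up an estimated 21.2% of the sinusoidal and 19.1% of the other endothelial UMIs, taken from 5 secreted-protein genes of hepatocytes. The 10 hepatocyte markers had a median log2 ratio of 0.17, with none 2-fold apart. T and NK cell markers summed to 101 against 39.9 CPM and B cell markers to 133 against 50.6 CPM. The macrophage, stellate and fibroblast, smooth muscle and pericyte, T and NK cell, B cell and mesothelial markers made up the stromal and immune lists. At least 2 UMIs of any of these lists were in 113 of 210 sinusoidal (53.8%) and 239 of 591 other endothelial barcodes (40.4%). Hepatocyte, tumour and cholangiocyte markers were not counted there. At least 2 hepatocyte marker UMIs were in all 210 sinusoidal barcodes, and at least 2 tumour marker UMIs in 146 (69.5%). Folds of main genes are also given after leaving out every barcode with 2 or more macrophage marker UMIs from both groups, an alternative chosen after seeing the data, which left 139 and 489 nuclei.

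Sequences upstream of some genes that separated the sinusoidal nuclei are shown as a description. The ETS family factors Erg, Fli1 and Ets1 were measured in the same nuclei, and whether they act on these genes was not tested. RefSeq windows of 250 bases upstream of the start were looked up for 8 genes and found for 5. The windows of Adam23 (GRCm38.p6 chr1:63445641-63445890, plus strand), Fcgr2b (chr1:170976072-170976321, minus strand) and Plxnc1 (chr10:94944846-94945095, minus strand) follow, 5′ to 3′ on the gene's strand. They lie upstream of the RefSeq start, and for Fcgr2b this start lies inside the GENCODE gene span given further on. Capitals mark GGAAG, the core of ETS sites, or its reverse complement.
Adam23: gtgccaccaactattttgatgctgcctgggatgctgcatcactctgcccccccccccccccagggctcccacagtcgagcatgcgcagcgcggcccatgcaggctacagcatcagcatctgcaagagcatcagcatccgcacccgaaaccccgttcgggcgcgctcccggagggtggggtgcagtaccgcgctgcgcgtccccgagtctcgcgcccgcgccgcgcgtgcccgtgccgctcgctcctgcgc
Fcgr2b: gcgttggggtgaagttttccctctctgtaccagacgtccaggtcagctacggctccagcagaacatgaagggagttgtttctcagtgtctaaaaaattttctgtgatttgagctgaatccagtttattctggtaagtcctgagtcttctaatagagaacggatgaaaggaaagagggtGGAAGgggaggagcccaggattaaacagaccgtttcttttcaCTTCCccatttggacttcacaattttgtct
Plxnc1: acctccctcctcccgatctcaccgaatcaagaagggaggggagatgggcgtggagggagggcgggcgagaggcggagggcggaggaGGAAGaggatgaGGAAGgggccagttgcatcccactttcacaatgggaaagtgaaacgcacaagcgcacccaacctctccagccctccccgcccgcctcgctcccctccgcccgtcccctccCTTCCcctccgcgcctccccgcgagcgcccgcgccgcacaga
GGAAG on either strand occurred 0 times in the Adam23 window, 2 times in that of Fcgr2b and 3 times in that of Plxnc1. The same letters are in 64.1% of all 32851 windows of this length, so a match is common. AGATAA or TGATAA, the letters of GATA factor sites, searched on both strands, were in none of the 5 windows and in 16.6% of all windows. These are matches of letters only.

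Against the other endothelial nuclei, 224 of 7527 genes with at least 100 UMIs in both groups together were at least 2-fold higher (2.98%) and 179 were at least 2-fold lower (2.38%), with a median log2 ratio of 0.04. Calls used log2 ratios with a pseudocount of 1 CPM. The other endothelial nuclei hold more UMIs in all, 3259365 against 1354756. A gene can pass the minimum through the group where it is high, and more easily through the other endothelial nuclei. The counts of higher and lower genes are therefore values only. Each count of list members with all nuclei of both groups is to be read beside these shares of all genes. Of 20 sinusoidal identity genes, 16 had enough UMIs, 10 were at least 2-fold higher and none lower, with a median log2 ratio of 1.38. Of 26 general endothelial genes, 23 had enough UMIs and 1 was higher, Tspan7, a tetraspanin (2.86-fold, 2.48 to 3.29), with a median of 0.01. Without the barcodes holding 2 or more macrophage marker UMIs, 2 of 21 general endothelial genes were higher, with a median of 0.34. Of the sinusoidal identity genes, 11 of 15 were then higher, with a median of 1.25. Without the barcodes holding 2 or more UMIs of a stromal or immune list, 97 and 352 nuclei were left. Then 90 genes were higher, 46 of them among the 224, and 118 lower, 62 of them among the 179. The minimum of 100 UMIs stayed the same in such smaller groups. How many of all genes passed it there is not given, here or below. The shares above therefore do not apply to those counts, and a change in them mixes genes that pass with changed folds.

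The gene with the highest ratio was Adam23, an adhesion protein of the ADAM family without protease activity, which spans chr1:63445891-63596276 of mm10 on the plus strand. It was at 692 CPM in the sinusoidal and 16.0 CPM in the other endothelial nuclei, 43.4-fold (32.8 to 58.5) apart. Its UMIs lay in 123 of 210 sinusoidal nuclei, and the nucleus with the most held 25 of them, or 2.67%. At 2000 UMIs per barcode, 53.8% (46.8 to 60.7) of sinusoidal nuclei held Adam23, against 1.69% of other endothelial, 1.08% of hepatocyte and 1.80% of macrophage reference nuclei. Without macrophage-marked barcodes the fold was 54.5 (38.7 to 79.2). In the macrophage reference Adam23 was at 11.3 CPM, below its 30.2 CPM in free RNA.

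Receptors for the uptake of blood-borne material followed. All 20 scavenger and endocytosis genes had enough UMIs, 6 were at least 2-fold higher and none lower, with a median log2 ratio of 0.37. Fcgr2b, the inhibitory Fc receptor that takes up immune complexes (chr1:170958617-170976547, minus strand), was at 162 against 8.28 CPM. Mrc1, the mannose receptor, was at 384 against 45.1 CPM, 8.51-fold higher (7.07 to 10.3). Msr1, scavenger receptor A, was at 286 against 34.7 CPM, 8.26-fold higher (6.68 to 10.3). Both are macrophage genes too: at 2000 UMIs Mrc1 was in 39.0% of sinusoidal, 7.11% of other endothelial and 37.8% of macrophage nuclei. Cd36, a receptor for fatty acids and oxidised lipoprotein, was 7.44-fold higher (5.43 to 10.4), and Ehd3, which recycles endocytic vesicles, 5.70-fold (4.43 to 7.39). The sixth was Stab1, a scavenger receptor related to Stab2. Without macrophage-marked barcodes, the folds were 28.2 (16.7 to 50.9) for Fcgr2b, 10.3 (8.01 to 13.2) for Mrc1, 9.05 (6.81 to 12.1) for Msr1 and 9.90 (6.93 to 14.4) for Cd36. The other 14 members ranged from 0.84-fold (0.65 to 1.07) for the scavenger receptor Scarf1 to 1.92-fold (1.70 to 2.16) for Dab2, a clathrin adaptor. Between them, the lysosomal membrane protein Scarb2 was 1.71-fold (1.38 to 2.11), the lysosomal protease Lgmn 1.39-fold (1.18 to 1.64) and clathrin heavy chain Cltc 0.96-fold (0.85 to 1.10).

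**Figure D1:**
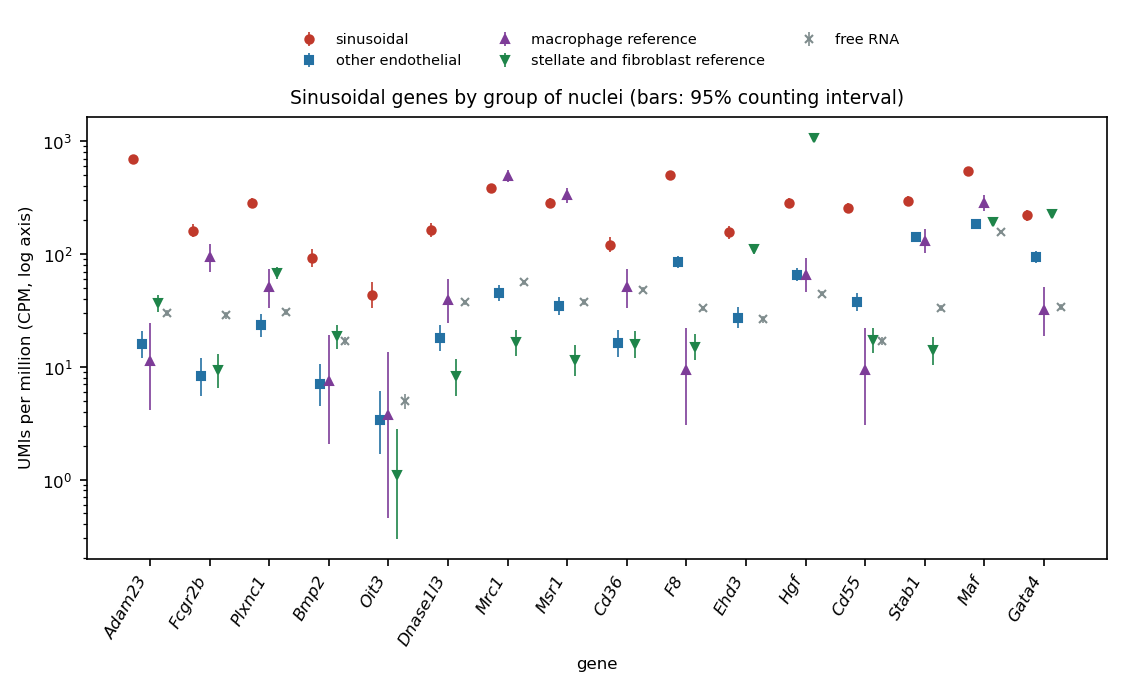
Level of 16 genes (CPM, log axis) in sinusoidal nuclei, other endothelial nuclei, macrophage and stellate reference nuclei and free RNA; bars are 95% counting intervals, and a level of 0 (Ehd3 in macrophage nuclei) is not drawn. Adam23 stands at 692 CPM in sinusoidal nuclei against 16.0 in other endothelial nuclei, while Mrc1 and Msr1 are as high or higher in macrophage nuclei, and Hgf is higher in stellate nuclei.

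Among haemostasis genes, 9 of 14 had enough UMIs, with 2 higher and 3 lower. F8, which encodes clotting factor VIII, was at 498 against 85.0 CPM, 5.86-fold higher (5.09 to 6.77), and at 9.39 CPM in macrophage nuclei. Tfpi, the inhibitor of the tissue factor pathway, was 2.14-fold higher (1.70 to 2.68). The genes on the lower side were Plat, tissue plasminogen activator (3.21-fold lower, 2.03 to 5.32), Procr, the protein C receptor (2.49-fold, 1.91 to 3.28), and Vwf, von Willebrand factor (2.12-fold, 1.48 to 3.13). Vwf and Plat fell short of 2-fold without macrophage-marked barcodes, at 1.35 (0.90 to 2.08) and 1.88 (1.16 to 3.23). Procr turned to 1.41-fold higher when barcodes with 2 or more UMIs of 6 tumour genes were left out. Dnase1l3, a secreted nuclease that digests DNA in blood, was 9.05-fold higher (6.77 to 12.3), at 164 against 18.1 CPM.

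Transcription factors were compared next. Of 23 factors, 20 had enough UMIs, 3 were at least 2-fold higher and none lower, with a median log2 ratio of 0.31. Gata4, known to be needed for sinusoidal identity, was at 220 against 94.2 CPM, 2.34-fold higher (1.98 to 2.75). Maf was 2.94-fold higher (2.63 to 3.28) and Tfec, of the MiT family, 3.04-fold (2.33 to 3.98). Tfec was also at 203 CPM in macrophage nuclei, and its fold was 2.42 (1.65 to 3.53) without macrophage-marked barcodes. Meis2 was 1.90-fold higher (1.76 to 2.04), just short of the call. Fli1 was 1.05-fold (0.96 to 1.14) and Tal1 1.02-fold (0.73 to 1.42).

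Of 20 genes for signals to hepatocytes and stroma, 13 had enough UMIs, 2 were higher and 1 lower. Bmp2 (chr2:133552159-133562885, plus strand), a ligand that acts on hepatocytes to raise hepcidin, was at 93.0 against 7.06 CPM, 13.2-fold higher (8.40 to 21.6). Its partner Bmp6 was at 165 against 139 CPM, 1.19-fold (1.01 to 1.40). Hgf, the ligand of the growth receptor Met, was at 281 against 65.7 CPM, 4.28-fold higher (3.61 to 5.09), though stellate reference nuclei had 1061 CPM. Without macrophage-marked barcodes Bmp2 was 13.5-fold (8.04 to 23.7) and Hgf 4.86-fold (3.94 to 6.02) higher. Rspo3, an amplifier of Wnt signalling, was 2.27-fold lower (1.82 to 2.86). Kitl, the ligand of the Kit receptor, was 1.91-fold lower (1.71 to 2.14). Wnt2 was under the minimum, with 25 of 1354756 UMIs in the sinusoidal nuclei and 20 of 3259365 in the others. With all nuclei of both groups, no gene of the 11 measured in the VEGF and angiopoietin list, or of the 16 in the BMP and TGF-beta list, was 2-fold apart. Without macrophage-marked barcodes, 2 of the 11 were higher and 1 lower, with a median log2 ratio of 0.49. Of the 16, 2 were then higher and none lower, with a median of 0.11.

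Other genes at the top by ratio included several with no place in the lists. Ppfia2, a scaffold protein of the liprin family, was 14.8-fold higher (9.99 to 22.5), and Plxnc1, a semaphorin receptor, 12.2-fold (9.48 to 15.8). Slc9a9, an endosomal sodium-proton exchanger, was 8.17-fold higher (6.60 to 10.2) and Ppp1r9a, an actin-binding protein, 9.02-fold (6.07 to 13.8). Both were also common in macrophage nuclei, at 47.8% and 23.4% of nuclei at 2000 UMIs, against 39.5% and 12.9% of sinusoidal nuclei. Without macrophage-marked barcodes the folds were 10.2 (7.12 to 14.7) for Slc9a9 and 7.60 (4.30 to 13.9) for Ppp1r9a. Fam124a was 7.88-fold higher (5.65 to 11.2) and was in 2.70% of macrophage nuclei. Lilr4b, a receptor of myeloid cells, was 7.71-fold higher (5.21 to 11.7), but 1 of its UMIs was left among the sinusoidal nuclei without macrophage-marked barcodes, and the fold was then 0.90 (0.02 to 9.12).

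**Figure D2:**
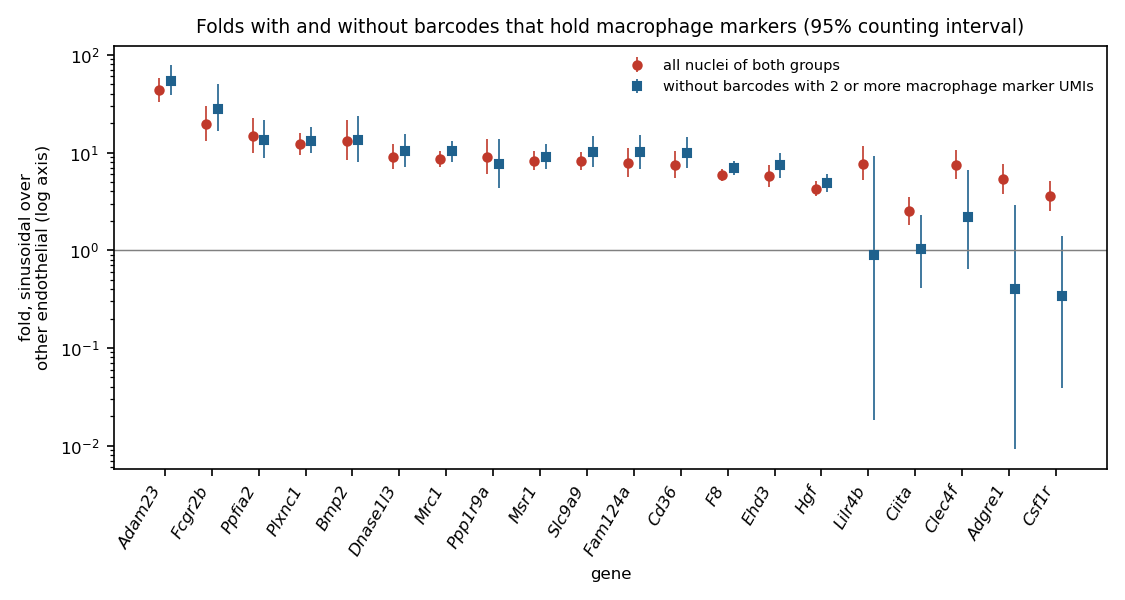
Fold of 20 genes, sinusoidal over other endothelial nuclei (log axis), with all nuclei (circles) and without barcodes holding 2 or more macrophage marker UMIs (squares); bars are 95% counting intervals. Adam23 goes from 43.4 to 54.5 and Mrc1 from 8.51 to 10.3, while Lilr4b goes from 7.71 to 0.90; Clec4f, Adgre1 and Csf1r are among the markers that define the barcodes left out.

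Of 17 genes for antigen presentation and T cell ligands, 13 had enough UMIs, 2 were at least 2-fold higher and none lower, with a median log2 ratio of 0.46. Ciita, the switch for MHC class II genes, was 2.50-fold higher (1.79 to 3.50), and Cd274, the checkpoint ligand PD-L1, 2.74-fold (1.89 to 3.97). Both were higher still in macrophage nuclei, at 207 and 95.8 CPM, and without macrophage-marked barcodes Ciita was 1.03-fold (0.41 to 2.32) and Cd274 2.29-fold (1.22 to 4.20). Without macrophage-marked barcodes 9 members had enough UMIs, none was 2-fold apart and the median was 0.19. Without barcodes marked by any stromal or immune list 7 had enough, again with none 2-fold apart, and the median was 0.016. B cell markers, whose cells also present antigen, were at 133 against 50.6 CPM. The MHC class I genes H2-K1 and H2-D1 were both 1.06-fold.

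A mixed list of continuous capillary and basement membrane genes was looked at next. Continuous capillaries have walls without pores that rest on a full basement membrane. All 18 had enough UMIs, none was 2-fold higher and 3 were 2-fold lower, with a median log2 ratio of -0.55. Col15a1, a basement membrane collagen, was 4.03-fold lower (2.88 to 5.78), and Cav1, the coat protein of caveolae, was at 28.0 against 87.1 CPM, 3.11-fold lower (2.21 to 4.48). Vwf, also of this list, was the third. Col4a1, a chain of the main basement membrane collagen, was at 486 against 871 CPM, 1.79-fold lower (1.65 to 1.95). Plvap, which is in the list although it is the diaphragm protein of endothelial pores, was 0.88-fold (0.69 to 1.12). Outside this list, Cdh13, an adhesion protein of the cadherin family, was at 382 against 1284 CPM, 3.36-fold lower (3.06 to 3.69). At 2000 UMIs it was in 22.4% (16.9 to 28.6) of sinusoidal and 56.7% (52.6 to 60.7) of other endothelial nuclei. Cdh13 is in the list of central-side sinusoid genes used for the zones further on. Of the 7 genes of that list with enough UMIs here, 3 were higher and 1, Cdh13, was lower. Without macrophage-marked barcodes the list's median was -0.22, and the folds were 2.95 (2.00 to 4.51) for Col15a1, 2.58 (1.75 to 3.96) for Cav1 and 2.41 (2.18 to 2.67) for Cdh13.

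Of 18 sprouting and tumour vessel genes, 14 had enough UMIs, none was higher and 2 were lower, with a median log2 ratio of -0.72. Igfbp3, which binds insulin-like growth factors, was at 354 against 826 CPM, 2.34-fold lower (2.12 to 2.58). Unc5b, a netrin receptor of tip cells, was 2.67-fold lower (2.04 to 3.55). Both fell under 2-fold without macrophage-marked barcodes, at 1.58 (1.42 to 1.76) and 1.98 (1.46 to 2.74), and the list's median was then -0.12. Of 15 Notch pathway genes, 9 had enough UMIs and 2 were lower: the ligand Jag2 (3.09-fold, 1.83 to 5.58) and the receptor Notch4 (2.14-fold, 1.66 to 2.78), which were 1.82-fold and 1.57-fold lower without those barcodes. In the hypoxia and glycolysis list 14 of 16 had enough UMIs and 3 were lower, Hk2, Egln3 and Slc2a1, with a median of -0.65. Hk2, a hexokinase, was 2.92-fold lower (2.39 to 3.60). The 9 tumour markers summed to 4844 CPM in the other endothelial and 2775 CPM in the sinusoidal nuclei. At least 2 of their UMIs were in 63.8% of other endothelial and 69.5% of sinusoidal barcodes, with a median of 2 in both. The part of tumour RNA in these differences was not tested. Hk2 turned to 1.40-fold higher without barcodes with 2 or more UMIs of 6 tumour genes. Without those barcodes 170 and 457 nuclei were left and 140 genes were lower, 81 of them among the 179. In the hypoxia and glycolysis list 1 gene was then lower, with a median of -0.15, and in the sprouting list 3 were, with a median of -0.81.

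**Figure D3:**
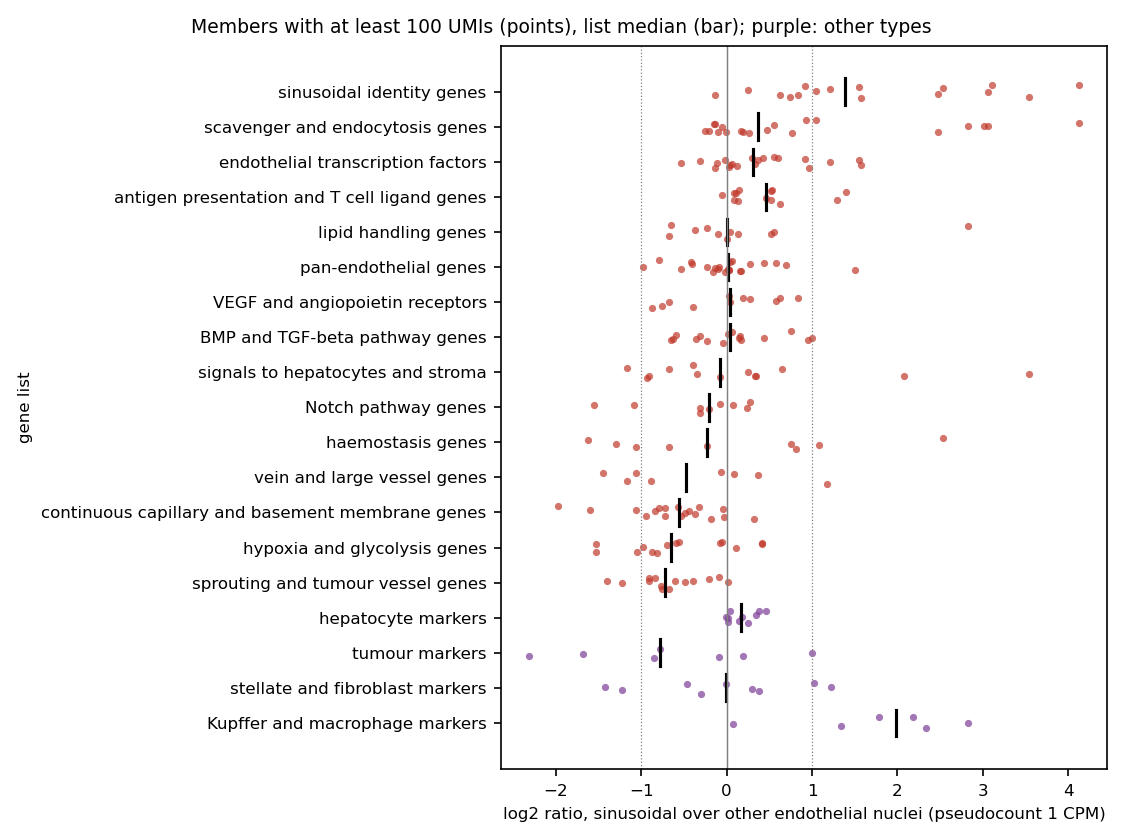
Log2 ratio of each list member with at least 100 UMIs (points), sinusoidal over other endothelial nuclei, with the list median (bar); dotted lines mark 2-fold, and purple points are markers of other cell types. Sinusoidal identity genes have a median of 1.38, continuous capillary genes -0.55 and sprouting genes -0.72, and the macrophage markers, at 1.98, lie highest.

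Of the 12 genes lowest by ratio, some rested on single nuclei. One nucleus held 96.2% of the Tas1r1 UMIs, 80.8% of those of Nucb1, 67.7% of Matn2, 50% of Lce1a2 and 48.9% of Eln among the other endothelial nuclei. Sparcl1, a matrix protein of vessels, was spread more widely. It was in 197 of 591 other endothelial and 23 of 210 sinusoidal nuclei, 5.49-fold lower (3.93 to 7.90). Dkk2, a secreted regulator of Wnt signalling, had 198 UMIs in 38 other endothelial nuclei and 4 UMIs in 3 sinusoidal nuclei. Lgr5, 5.42-fold lower, turned to 1.74-fold higher without tumour-marked barcodes.

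Levels were also set out by the amount of gate RNA per nucleus. The split uses the gate's own counts, so it is a description and supports nothing. Nuclei were split by their Stab2, Lyve1 and Clec4g UMIs into 97 with 1, 47 with 2 to 3, 54 with 4 to 7 and 109 with 8 or more, beside the 591 with 0. Adam23 was at 16.0, 35.9, 87.3, 409 and 1108 CPM from the lowest to the highest class. Mrc1 was at 45.1, 76.7, 168, 260 and 546 CPM. Cdh13 went the other way, at 1284, 845, 544, 394 and 308 CPM, while Erg stayed between 178 and 275 CPM. Other genes did not follow the order: F8 was at 85.0, 109, 384, 262 and 681 CPM, and Tek at 168, 168, 339, 172 and 259 CPM. The macrophage markers did not follow this order and peaked in the nuclei with 2 to 3 gate UMIs, at 1030 CPM, against 699 CPM in those with 8 or more. Bmp2 and Oit3 had 2 UMIs each among the 47 nuclei with 2 to 3 gate UMIs, so the lower edge of the gate held little of the RNA of these genes. With at least 4 gate UMIs, 163 nuclei were left, and Adam23 was 53.5-fold, Mrc1 9.80-fold and Hgf 4.89-fold higher, and Vwf 0.18-fold.

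**Figure D4:**
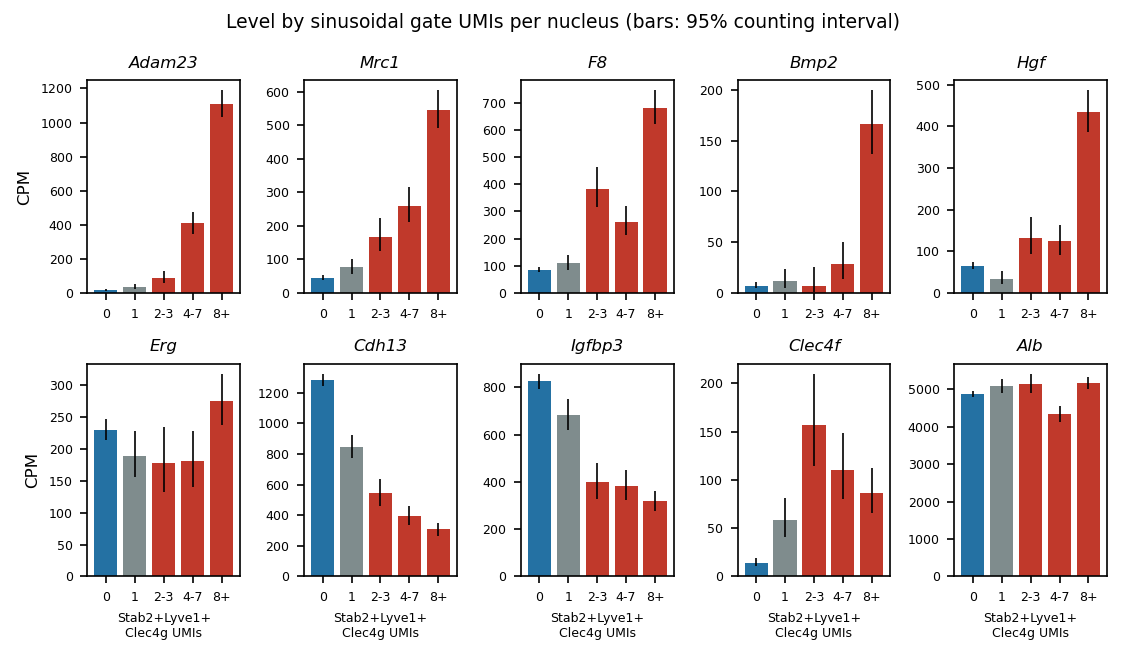
Level (CPM, axes from 0) of 10 genes in endothelial nuclei split by their UMIs of Stab2, Lyve1 and Clec4g; blue is 0, grey 1 and red the nuclei within the gate, with 95% counting intervals. Adam23 goes from 16.0 to 1108 CPM and Cdh13 from 1284 to 308 CPM, Clec4f is highest at 2 to 3, and Alb has a similar level in all classes.

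Set against all 9422 other nuclei, which include the other endothelial ones, 1812 of 15651 genes were at least 2-fold higher (11.6%) and 1863 lower (11.9%). All 26 general endothelial genes were among the higher, with a median log2 ratio of 2.96. Tek, the angiopoietin receptor, was at 251 against 15.1 CPM, 16.6-fold higher (14.7 to 18.8). Adgrg3, an adhesion G protein-coupled receptor, was 35.1-fold higher (28.6 to 42.9), Col13a1, a membrane collagen, 26.8-fold (20.6 to 34.6) and Cd55, an inhibitor of complement, 22.5-fold (19.8 to 25.4). Kcne3, a potassium channel subunit, was 15.4-fold higher (13.1 to 18.1) than in all other nuclei but level with the other endothelial nuclei at 142 against 141 CPM. Adgrg3 and Cd55 were also higher than in the other endothelial nuclei, by 4.22-fold and 6.77-fold.

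Zones along the lobule rested on few nuclei. Nuclei with at least 1 UMI of Wnt2, Rspo3, Wnt9b, Kit or Thbd and 0 of Ntn4, Ltbp4, Dll4, Efnb2 or Msr1 were called central-side, the opposite portal-side, and these are ranges of a score and not types. There were 18 central-side nuclei with 76768 UMIs and 86 portal-side nuclei with 561689, while 93 held both kinds and 13 neither. Of 3085 genes, 82 were at least 2-fold higher on the central side (2.66%) and 274 lower (8.88%). The portal-side group holds most of the UMIs, so a gene can pass the minimum of 50 UMIs through that group alone, and the counts are values only. Of 6 portal-side genes outside the anchors with enough UMIs, 2 were lower on the central side: Cd36 (65.1 against 185 CPM, 0.35-fold, 0.11 to 0.85) and Osmr, a cytokine receptor (0.20-fold, 0.02 to 0.73). They rested on 5 against 104 and 2 against 75 UMIs and passed the minimum through the portal side, where they were high, so they support no difference. Of 3 such central-side genes, Cdh13 was higher (2.41-fold, 1.48 to 3.79), with the direction opposite with 3 anchor genes a side, at up to 1% mitochondrial UMIs, and with hepatocyte genes under 5 per 10000. Adam23 was 0.81-fold (0.61 to 1.05) and Hgf 0.84-fold (0.48 to 1.37). Macrophage markers were at 326 CPM on the central and 913 CPM on the portal side, where Msr1, a macrophage gene, is an anchor, and their part in these differences was not tested.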

How the data were processed

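Nuclei of frozen mouse liver were profiled with 10x Genomics 3' libraries, per the labels' protocols. The deposited values are raw UMI counts per gene and barcode. Per the submitters' processing notes, Cell Ranger 5.0 and mm10 were used. The filtered matrix held 95130408 UMIs over 32285 genes. No source used here says how the 2 samples were combined.

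From the deposited counts, UMIs were summed per group and scaled to CPM (Python 3.11.15, scipy 1.17.1). Genes were called at 2-fold with a pseudocount of 1 CPM among those with at least 100 UMIs in both groups together, or 50 for zones. Folds carry exact conditional Poisson 95% intervals and shares Clopper-Pearson 95% intervals, for counting error only. Free RNA came from uncalled barcodes with 500 to 849 UMIs. Scrublet in scanpy 1.11.5 called 323 of the 9632 barcodes that passed the depth and mitochondrial limits. Reference groups held under 4 endothelial gate UMIs and at least 4 UMIs of macrophage or of stellate markers, or at least 20 hepatocyte gate UMIs per 10000; they were chosen after the data were seen. The procedure was tested on simulated counts.

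Genes named beyond the lists were the 12 highest and 12 lowest against other endothelial nuclei, the 20 highest against all other nuclei, and the 8 at each end of the zones, if at least 2 times the free RNA level in the higher group. A few are described in full. The members and gene lists were chosen with earlier results of these data known. Symbols that occur on more than 1 row were not named. Coordinates are from GENCODE vM21 (GRCm38), and 423 of 423 gene IDs matched.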

Additional observations from a re-analysis of the deposited data

How the results depend on the processing

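No paired analysis was possible because no barcode names its sample, and for the same reason no replicate was left out. Values are counts of genes at least 2-fold higher and lower, or log2 ratios where a gene is named. The number of genes past the UMI minimum differs between settings and is not given, so the counts are not shares. Barcodes of another type are those marked by the stromal and immune lists, not by hepatocyte, tumour or cholangiocyte markers.

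The number of sinusoidal nuclei was 104 at up to 1% mitochondrial UMIs, 163 at 4 or more sinusoidal UMIs, 152 with hepatocyte genes under 5 per 10000, 97 without barcodes holding 2 UMIs of another type and 139 without those holding 2 macrophage UMIs. Against other endothelial nuclei (224 and 179), the counts were 90 and 118 without barcodes of another type, 501 and 307 or 631 and 430 after subtracting either free RNA profile, 627 and 479 at 20 UMIs a gene, 1380 and 1016 with no minimum, and 93 and 97 when thinned. With 10 CPM as pseudocount 115 were lower. The higher count was 106 without barcodes with 2 macrophage UMIs (68 of them among the 224), 129 without those with 2 tumour UMIs, and 75, with 110 lower, without those with 1 macrophage UMI.

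Against all other nuclei (1812 and 1863), 4025 and 3147 were lower without barcodes of another type and without macrophage-marked ones. In this comparison such barcodes were left out of the sinusoidal nuclei only, which left 97 and 139. All 9422 other nuclei were kept, so these 2 counts set a reduced group against a full one. With the profile of 1 to 100 UMIs 3287 were lower. A pseudocount of 10 gave 981 and 628, and thinning gave 990 higher.

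For the zones (82 and 274), the counts were 20 and 52 without other types, 196 and 462 or 250 and 632 after free RNA, 380 and 965 at 20 UMIs, 2393 and 6534 with no minimum, 17 and 43 thinned, 154 and 443 with 2 anchor UMIs, 21 and 94 without macrophage-marked barcodes, and 41 and 135 without Msr1. With 3 anchors a side 144 were higher, 12 of them among the 82, and with 4 sinusoidal UMIs 174 were lower.

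Directions changed for these named genes, and the cause was not tested. In the zones with 3 anchors a side: Tspan18 -0.29, Pde4b -0.23, Limch1 -1.44, Zfp521 -0.058, Csgalnact1 -0.59, Cdh13 -1.50 and Cd5l 0.36. Cdh13 was -7.52 at 1% mitochondrial UMIs and -2.01 under the hepatocyte limit, where Reln was -0.17 and Ank3 -6.93. Without other types Reln and Ank3 were -4.50, Gata4 -0.12 and Cd5l 1.86. Cd5l was 0.70 without macrophage-marked barcodes and 0.83 without Msr1. Against other endothelial nuclei, Nucb1 was 0.0063 at 8 endothelial UMIs, 0.15 without other types, 0.16 without barcodes with 2 macrophage UMIs and 0.72 without those with 1, where Lce1a2 was 0.57. Ciita was -0.28 without other types, and Lilr4b -0.089 without macrophage-marked barcodes. Without tumour-marked barcodes Lgr5 was 0.73, Hk2 0.47 and Procr 0.48. Of all other values for named genes against other endothelial nuclei, 885 stayed within the counting interval of the value reported and 257 left it. Against all other nuclei 158 stayed and 142 left it. For the zones, whose intervals are wide, 369 stayed and 28 left it.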

Other observations

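The 97 barcodes with 1 sinusoidal UMI, which are in neither endothelial group, held 2352 CPM of sinusoidal identity genes in sum, against 2156 CPM in the nuclei with 0 such UMIs and 5027 CPM in the sinusoidal nuclei. Their macrophage markers summed to 643 CPM. Of 16 cell cycle genes, 2 had enough UMIs against the other endothelial nuclei and none was 2-fold apart: Top2a, which untangles DNA for division, was at 39.1 against 20.3 CPM (1.93-fold, 1.32 to 2.82), and Pola1, a DNA polymerase subunit, was 1.44-fold (1.18 to 1.76). Of 12 lipid handling genes 11 had enough UMIs and Cd36 alone was 2-fold apart, with a median log2 ratio of 0.01.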
